A study of Sus scrofa with 20 samples.

Results

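The expression of 6 genes that mark tanycytes and ependymal cells, the cells that line the third ventricle, was examined in pig hypothalamus. RAX, VIM, NES, FOXJ1, RARRES2 and SPAG6 were chosen by name, with earlier results of these data known. The platform annotation assigned 13 probe sets to them out of 47722. The series as a whole measured 13664 named genes. Of the 13 probe sets, 11 had a mean signal high enough to be tested, and the other 2 belonged to NES. The samples were 10 high-reactive (HR) and 10 low-reactive (LR) German Landrace pigs, 1 Affymetrix Porcine Snowball array each. The pigs were sampled at slaughter, months after birth. Coping behaviour had been scored from how a piglet struggles when it is held on its back. The study picked its animals by this early score and by their haplotype at a coping-related region, so behaviour and haplotype cannot be told apart in these groups. No treatment was given in the labels, which also do not state sex.

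Tanycytes are elongated glia on the floor and lower walls of the third ventricle. They touch the cerebrospinal fluid on one side and send a process to the blood vessels or neurons of the hypothalamus on the other, where they handle thyroid hormone, retinoids and metabolic signals. RAX is the homeobox factor that specifies the hypothalamus and stays on in tanycytes, and VIM (vimentin) and NES (nestin) are intermediate filament proteins of their processes. Ependymal cells cover the upper walls and beat many motile cilia. FOXJ1 is the forkhead factor that switches on the genes of motile cilia, and SPAG6 is a protein of the central pair of microtubules in the cilium. RARRES2 encodes the secreted protein chemerin, a ligand of the receptor CMKLR1, and is made by tanycytes in rodents. None of these genes is restricted to the ventricular wall: vimentin and nestin are also made in blood vessel walls, vimentin in astrocytes, and FOXJ1 and the cilia genes in the choroid plexus. In whole tissue, fewer cells of a type and less RNA per cell cannot be told apart.

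All values are log2 signals after robust multichip average (RMA) normalisation, so a difference of 1 is a 2-fold change, and levels of different probe sets are not set against each other. The median signal of the arrays lay between 5.14 and 5.26. One array stood apart in its marker genes. LR replicate 3 correlated with the other arrays at a median r of 0.90, where the other arrays had medians between 0.87 and 0.96, but it was high in markers of the thalamus. TCF7L2, a transcription factor of the thalamus, had a signal of 10.31 on this array, 1.82 above the median of the other 19 arrays. The mean of 7 thalamus markers was 9.37 on LR replicate 3, against at most 8.43 on the other LR arrays, and the mean of 17 markers of hypothalamic neurons was 7.11, against at least 7.90. The comparisons of the 6 genes are therefore given with and without this array, and those of other genes where it moved a value by over 1.5 times or ended a call. The replicate numbers only name the arrays within a group.

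None of the 11 member probe sets differed between HR and LR pigs at an adjusted p under 0.05 by limma, where 0% of 23861 tested probe sets did. At an unadjusted p under 0.05 there was 1 member probe set, 1 of 3 tested for NES, against 4.57% of all probe sets. Without LR replicate 3 there were 3, both probe sets of VIM and the same one of NES, against 3.50% of all, and again 0 at an adjusted p under 0.05. The differences were positive for 7 and negative for 4 of the 11 with all arrays, where 51.4% of all tested probe sets were higher in HR. The values of the HR and LR animals overlapped in every member probe set. The share of all tested probe sets that overlapped is not given. Across all tested probe sets the median 95% interval reached 0.29 to either side of the difference.

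**Figure D1:**
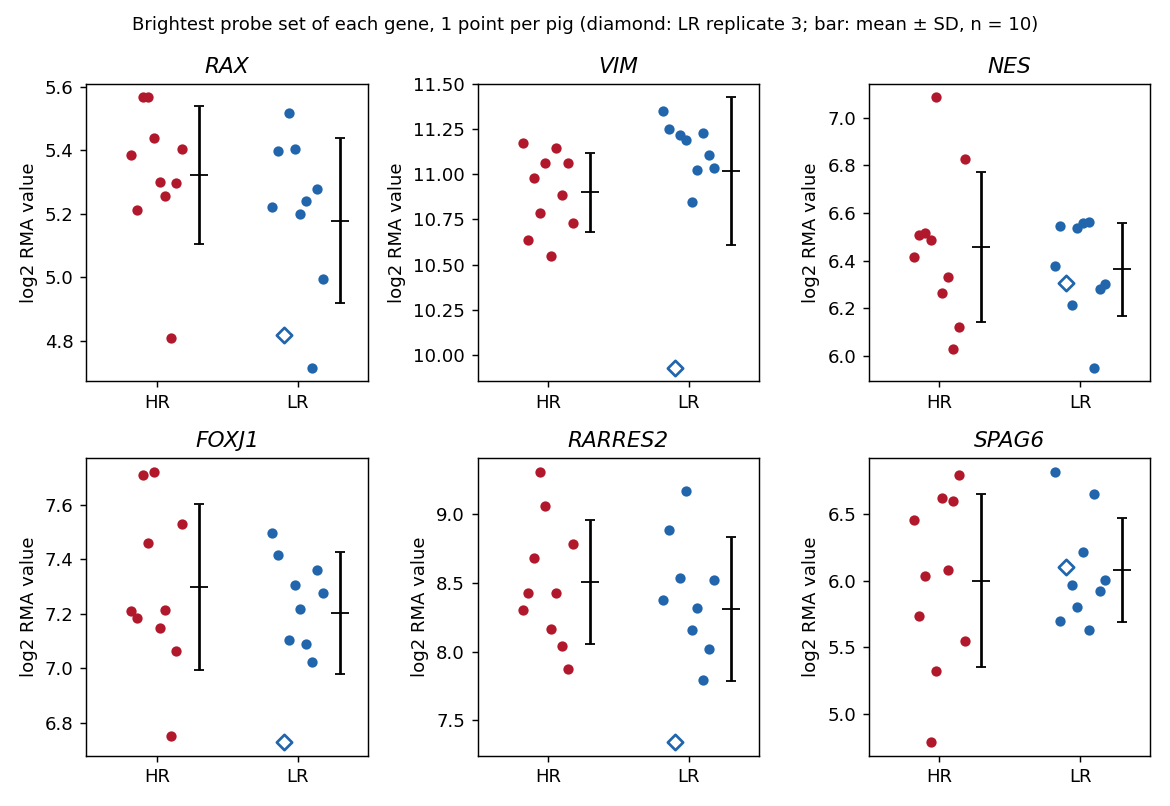
Log2 RMA signal of the brightest probe set of each gene in the 10 HR pigs (left, red) and the 10 LR pigs (right, blue), with mean ± SD beside the points; the diamond is LR replicate 3. The groups overlap in all 6 genes, and LR replicate 3 is the lowest LR array for VIM (9.93), FOXJ1 (6.73) and RARRES2 (7.34).

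RAX (chromosome 1, 161679154 to 161683486 in Sscrofa11.1) had a single, dim probe set, with a mean of 5.25 where the lowest mean tested was 5.21. The signal ranged from 4.81 to 5.57 with a median of 5.34 in HR pigs, and from 4.71 to 5.52 with a median of 5.23 in LR pigs. In 9 of 10 HR pigs it lay above the LR mean, and in 8 above the LR mean without LR replicate 3. HR replicate 8 was as low as the lowest LR animals. The means were 5.32 ± 0.22 in HR and 5.18 ± 0.26 in LR (SD, n = 10 each), a difference of 0.14 ± 0.11 (SE), unadjusted p = 0.209 and an adjusted p of 0.861 by limma. The 95% interval, from -0.09 to 0.38, allowed anything between a fold of 0.941 and 1.30. LR replicate 3 was the third lowest of the 20 arrays at 4.82, and without it the difference was 0.10 ± 0.11.

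VIM (chromosome 10, 43516441 to 43526172) was among the brightest transcripts, with both probe sets above the 99th percentile of mean signal. Its brighter probe set ranged from 10.55 to 11.17 with a median of 10.93 in HR pigs, and from 9.93 to 11.35 with a median of 11.15 in LR pigs. The value of 9.93 was that of LR replicate 3, and the next LR animal had 10.85. The other probe set gave 9.99 to 10.80 with a median of 10.47 in HR pigs, and 9.18 to 10.88 with a median of 10.73 in LR pigs. LR replicate 3 again had the lowest value, 9.18, ahead of 10.42 in the next LR animal, so that the distance of this array to the median of the other 19 was -1.13 and -1.40. The 2 probe sets followed each other closely over the animals (r = 0.98, and 0.96 without LR replicate 3).

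With all arrays, VIM averaged 10.90 ± 0.22 in HR and 11.02 ± 0.41 in LR (SD, n = 10 each) in the brighter probe set, a difference of -0.12 ± 0.14 with an adjusted p of 0.891 by limma. In the other it averaged 10.42 ± 0.25 in HR and 10.57 ± 0.51 in LR, a difference of -0.14 ± 0.17 with an adjusted p of 0.887. By the rank-sum test with all arrays, the unadjusted p was 0.0753 and 0.0355, and the adjusted p was 0.900 for both. The single array with the lowest vimentin thus lay in the group with the higher median. Without it the LR means were 11.14 ± 0.15 and 10.72 ± 0.15 (SD, 9 arrays). The difference in the brighter probe set became -0.24 ± 0.10 (unadjusted p = 0.0224 by limma), a fold of 0.847. In the other it became -0.30 ± 0.10 (unadjusted p = 0.00874), a fold of 0.813. Of the 10 HR pigs, 2 lay above this LR mean in the brighter probe set and 1 in the other. Neither value passed the adjustment over all probe sets (adjusted p = 0.9998 by limma for both), and the choice to leave out LR replicate 3 was made with its vimentin level known. The brighter VIM probe set is of a type that can bind several transcripts.

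NES (chromosome 4, 93412660 to 93421899) had 5 probe sets, of which 2 lay under the signal filter with means of 3.68 and 2.42. Their differences did not share a direction. The brightest (SNOWBALL_006034_st) ranged from 6.03 to 7.09 with a median of 6.45 in HR pigs, and from 5.95 to 6.56 with a median of 6.34 in LR pigs. It averaged 6.46 ± 0.31 in HR and 6.36 ± 0.20 in LR. The difference was 0.09 ± 0.12 (unadjusted p = 0.438 by limma), and 0.09 ± 0.12 without LR replicate 3. The next (SNOWBALL_038445_st) averaged 6.39 ± 0.19 in HR and 6.35 ± 0.16 in LR, a difference of 0.04 ± 0.09, and of 0.03 ± 0.09 without LR replicate 3. The third (SNOWBALL_042471_st) went the other way and had the smallest unadjusted p of all member probe sets. It ranged from 4.78 to 5.39 with a median of 5.25 in HR pigs, and from 5.23 to 5.81 with a median of 5.44 in LR pigs, and no HR pig reached the LR mean. The means were 5.19 ± 0.20 in HR and 5.44 ± 0.18 in LR, a difference of -0.25 ± 0.09, unadjusted p = 0.0150 and an adjusted p of 0.861 by limma, and of -0.24 ± 0.10 without LR replicate 3. Its mean of 5.31 was close to the filter of 5.21. The 2 dim ones had 3.65 ± 0.30 in HR and 3.71 ± 0.28 in LR, and 2.42 ± 0.29 in HR and 2.42 ± 0.25 in LR. Without LR replicate 3 their LR values were 3.74 ± 0.29 and 2.42 ± 0.27. Over the 20 arrays the 5 probe sets correlated with each other at r between -0.38 and 0.70, so no common nestin profile was seen.

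FOXJ1 (chromosome 12, 5307370 to 5312117) was measured by 2 probe sets that followed each other over the animals (r = 0.89). The brighter ranged from 6.75 to 7.72 with a median of 7.21 in HR pigs, and from 6.73 to 7.496 with a median of 7.25 in LR pigs. The medians and the means did not have the same order, as HR replicates 3 and 5 were the highest of all arrays. The mean was 7.30 ± 0.30 in HR and 7.20 ± 0.22 in LR (SD, n = 10 each), a difference of 0.10 ± 0.12, unadjusted p = 0.434 by limma. The dimmer probe set averaged 6.10 ± 0.33 in HR and 6.05 ± 0.26 in LR, a difference of 0.05 ± 0.13. LR replicate 3 was the lowest of the 20 arrays in both, at 6.73 and 5.43, and without it the differences were 0.04 ± 0.12 and -0.02 ± 0.12.

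SPAG6 (chromosome 10, 52496457 to 52571977) varied more between animals than 84.4% of the tested probe sets, with a single probe set of the type that can bind several transcripts. It ranged from 4.79 to 6.80 with a median of 6.06 in HR pigs, and from 5.63 to 6.82 with a median of 5.99 in LR pigs. The lowest and the second highest of all 20 values were both in HR pigs, replicates 4 and 9. The means were 5.9997 ± 0.65 in HR and 6.08 ± 0.39 in LR, a difference of -0.08 ± 0.22, unadjusted p = 0.716. The 95% interval, from -0.55 to 0.38, was the widest of the member probe sets. On LR replicate 3 the signal was 6.11, above the LR median, and without this array the difference stayed at -0.08.

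RARRES2 (chromosome 18, 55903693 to 55906976) was bright and variable in both of its probe sets, which followed each other closely (r = 0.94). The brighter, which can bind several transcripts, ranged from 7.87 to 9.31 with a median of 8.43 in HR pigs, and from 7.34 to 9.17 with a median of 8.35 in LR pigs. It averaged 8.50 ± 0.45 in HR and 8.31 ± 0.53 in LR, a difference of 0.19 ± 0.21, unadjusted p = 0.356. The other averaged 8.19 ± 0.45 in HR and 7.99 ± 0.40 in LR, a difference of 0.20 ± 0.18, unadjusted p = 0.284. LR replicate 3 had the lowest chemerin signal of all 20 arrays, 7.34 and 7.07, at a distance of -1.08 and -1.05 from the median of the others. Without it the differences were 0.09 ± 0.19 and 0.10 ± 0.16.

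**Figure D2:**
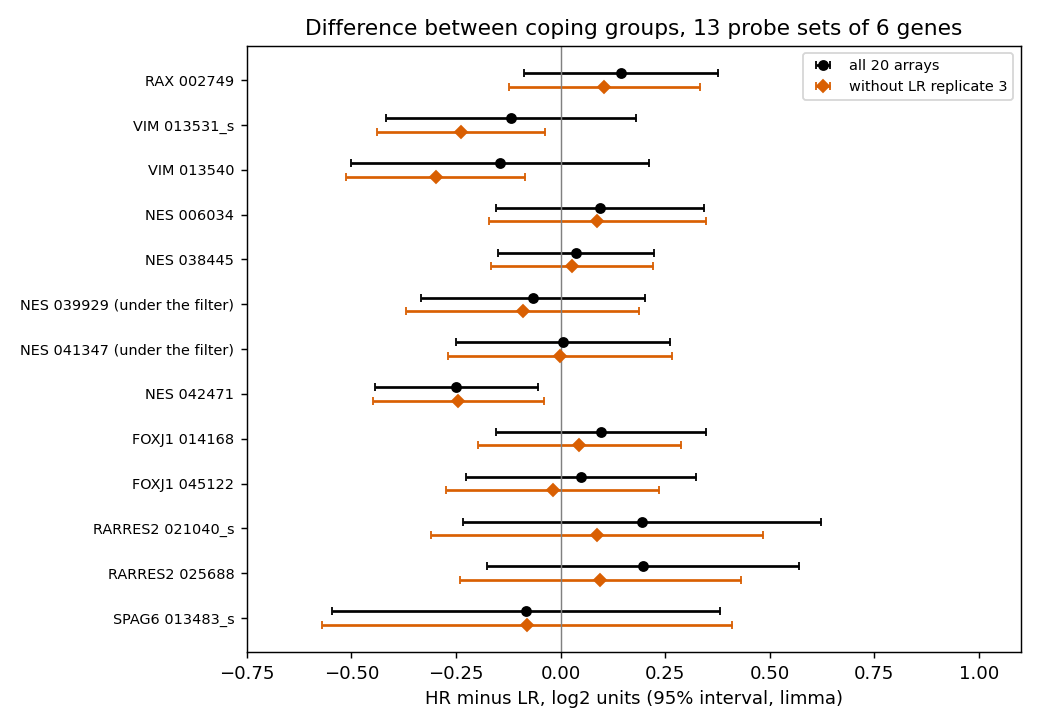
HR minus LR difference in log2 units with its 95% interval (limma) for the 13 probe sets, with all 20 arrays (black circles) and without LR replicate 3 (orange diamonds). The 95% interval excludes 0 for 1 NES probe set with all arrays (-0.25), and also for both VIM probe sets without LR replicate 3 (-0.24 and -0.30).

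The array high in thalamus markers was low in some of the genes and not in others. LR replicate 3 was the lowest of the 20 arrays in 6 of the 11 tested probe sets, those of VIM, FOXJ1 and RARRES2, where it was the lowest in 16.9% of all tested probe sets. It was ordinary for NES, where its rank was 8 for the brightest probe set, and for SPAG6, where its rank was 13. Over all 10290 genes tested, it was lowest in 16.3% and highest in 10.9%. Other genes of the ventricular wall were counted as well, leaving the 6 members out. Among 14 tanycyte genes it was lowest in 2, near the 16.3% of all genes. These were LHX2, a homeobox factor of tanycytes (6.31), and CRYM, a thyroid hormone binding protein (7.57). The array was highest in FRZB, a secreted Wnt antagonist (9.15), in COL25A1, a membrane collagen (7.999), and in DIO2, the deiodinase that activates thyroid hormone (7.18). Among 22 cilia genes it was lowest in 7 and highest in 1, CCDC39 (8.40). Of 8 genes of chemerin and retinoid signalling it was lowest in 5, among them the retinoid receptors RXRG, RARA and RXRA and the chemerin-binding receptor CCRL2, and highest in RARB. In 11 of 17 markers of hypothalamic neurons it was lowest too. The part of the thalamus markers in these values was not tested.

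**Figure D3:**
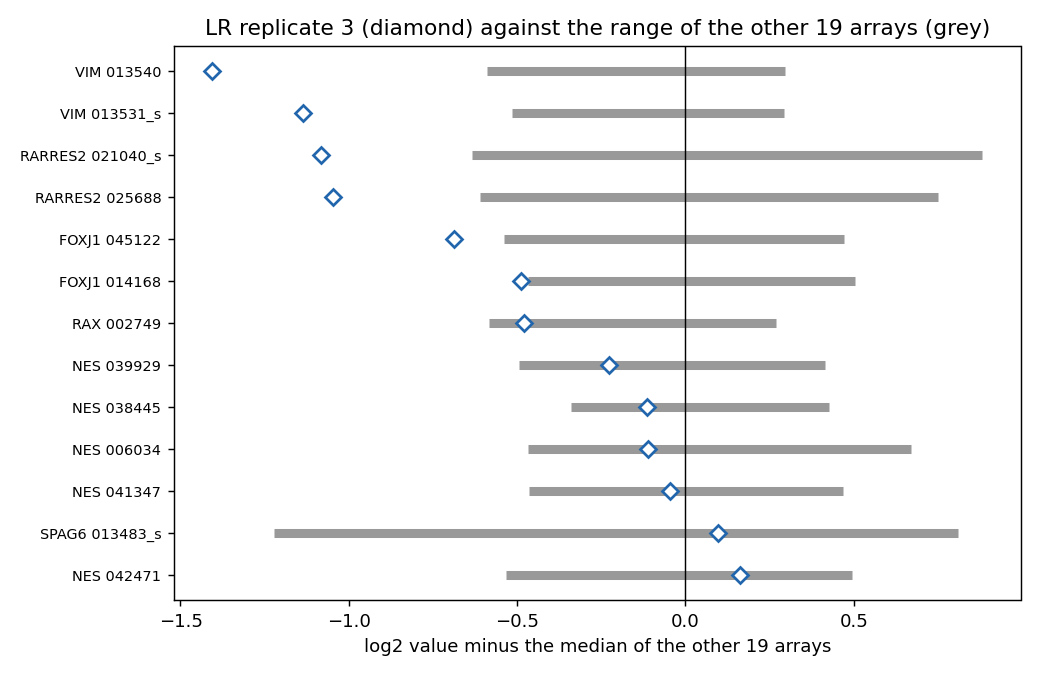
Log2 signal of LR replicate 3 (diamonds) minus the median of the other 19 arrays for each of the 13 probe sets, with the range of those 19 arrays as a grey bar. Both VIM probe sets lie furthest down, at -1.13 and -1.40, followed by RARRES2 at -1.08 and -1.05; NES and SPAG6 lie inside the range.

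The signal of most members moved with the unspecific signal of the array. The mean of 69 background controls, probe sets designed to match no transcript, ranged from 3.73 to 4.44 in HR pigs and from 3.68 to 4.22 in LR pigs. Over the 20 arrays RAX correlated with it at r = 0.74 (rho = 0.70), the brightest NES probe set at 0.83 (rho = 0.80), FOXJ1 at 0.81 in both probe sets (rho = 0.79 and 0.73) and RARRES2 at 0.88 and 0.91 (rho = 0.87 and 0.93). SPAG6 went in the opposite direction with r = -0.80 (rho = -0.76). In permutation tests none of these 7 had an adjusted p above 0.00162 for r or rho over the 13 relations computed, and without HR replicate 5 and LR replicate 8, the arrays of most extreme background, r was between 0.68 and 0.92 in size. The sign was the same within HR and within LR. A correlation of this size was common on these arrays: 61.6% of all tested probe sets reached 0.7 in size, against 7 of the 11 member probe sets. VIM showed little relation, with r = 0.20 and 0.25 (rho = -0.02 and 0.08, permutation p = 0.406 and 0.290 for r), a correlation no larger in size than 0.3, which held for 9.81% of all tested probe sets. The part of the background signal in the values was not tested, but with it as a covariate no member passed at an adjusted p under 0.05. Beside that covariate the difference was 0.08 for RAX, 0.01 and -0.002 for the 2 brightest NES probe sets, 0.01 and -0.04 for the brighter and the dimmer FOXJ1 probe set, 0.03 and 0.05 for RARRES2 and 0.08 for SPAG6. Those of RARRES2, FOXJ1, RAX and the brightest NES probe set were smaller than without the covariate by over 1.5 times, and those of SPAG6, the dimmer FOXJ1 probe set and the next NES probe set had the opposite sign. The NES probe set with the smallest p differed by -0.22, and VIM by -0.15 and -0.19 with all arrays. Both probe sets of VIM differed by -0.24 and -0.30 with this covariate and without LR replicate 3, with an adjusted p of 0.489 by limma.

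**Figure D4:**
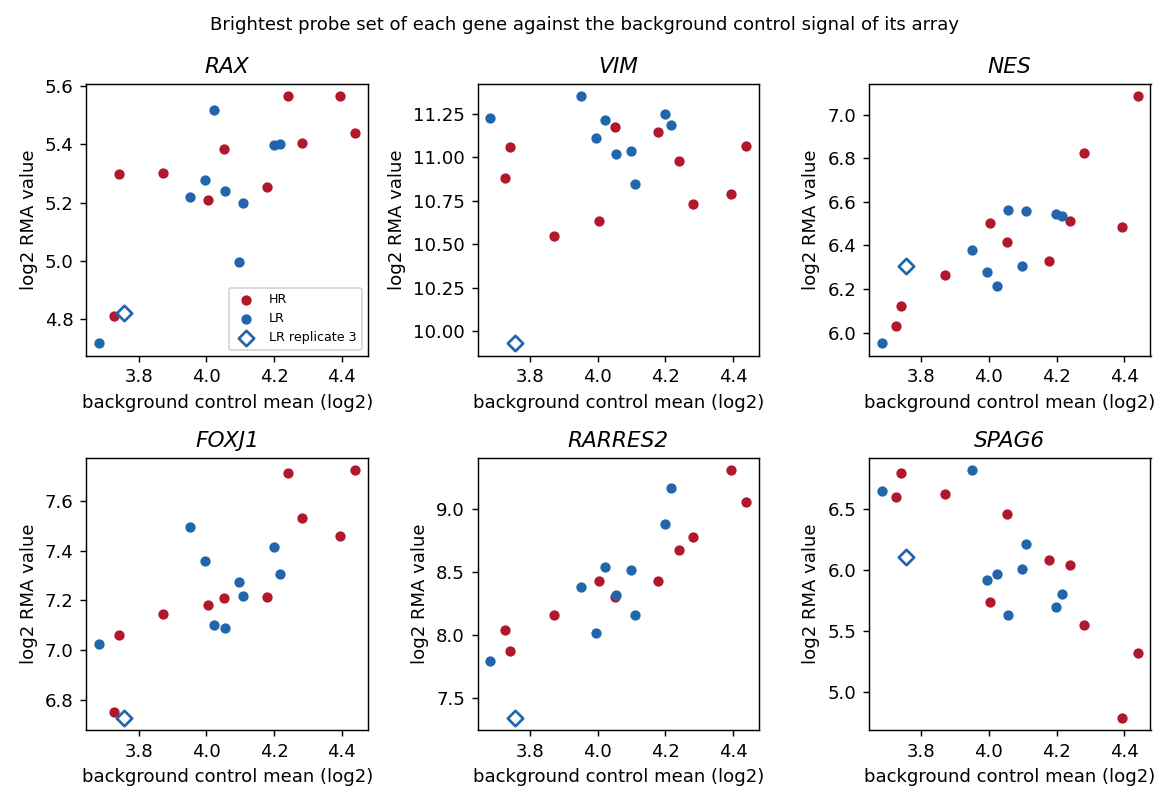
Log2 signal of the brightest probe set of each gene against the mean log2 signal of the background controls, 1 point per array (HR red, LR blue, diamond LR replicate 3). RAX, NES, FOXJ1 and RARRES2 increase with the background (r from 0.74 to 0.88), SPAG6 decreases (r = -0.80), and VIM shows little relation (r = 0.20).

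The tanycyte list, which includes RAX, VIM and NES, did not separate the groups either. Of 26 listed genes 22 were on the array and 17 were tested, of which 8 were higher and 9 lower in HR pigs, with a median difference of -0.10, and of 0.03 without LR replicate 3, against 0.00 over all 10290 genes tested. Of the 14 that were not members 6 were higher and 8 lower. None passed at an adjusted p under 0.05, and 2 had an unadjusted p under 0.05, both lower in HR, where 4.18% of all genes had one. FRZB averaged 7.57 ± 0.46 in HR and 8.05 ± 0.43 in LR, a difference of -0.49 ± 0.19 (unadjusted p = 0.0173 by limma), and of -0.36 ± 0.16 without LR replicate 3. CD59, an inhibitor of complement on the cell surface, averaged 9.59 ± 0.20 in HR and 9.81 ± 0.20 in LR, a difference of -0.21 ± 0.10 (unadjusted p = 0.0425), and of -0.25 ± 0.09 without it. DIO2 averaged 5.80 ± 0.51 in HR and 5.90 ± 0.69 in LR, a difference of -0.10 ± 0.25, and of 0.04 ± 0.23 without LR replicate 3.

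Motile cilia are built from dynein arms, the central pair with its spokes and the proteins that assemble them. Of 47 listed cilia genes 33 were on the array and 24 were tested, 13 higher and 11 lower in HR pigs, with a median difference of 0.03, and of -0.01 without LR replicate 3. FOXJ1 and SPAG6 are among them. One of the 24 (4.17%) had an unadjusted p under 0.05, against 4.18% of all genes, so the count was at the level of the arrays as a whole. It was SPAG16, a protein of the central pair, with 7.77 ± 0.51 in HR and 8.12 ± 0.20 in LR, a difference of -0.35 ± 0.17 (p = 0.0490 by limma, and 0.0625 without LR replicate 3). ROPN1L, a radial spoke protein, differed by -0.16 ± 0.09. The factors that drive the formation of many cilia gave 8 tested genes, 6 higher and 2 lower in HR, of which STK36, a kinase needed for the central pair, differed by 0.18 ± 0.10 and TP73, a transcription factor upstream of FOXJ1, by 0.15 ± 0.09. None of the 8 had an unadjusted p under 0.05.

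**Figure D5:**
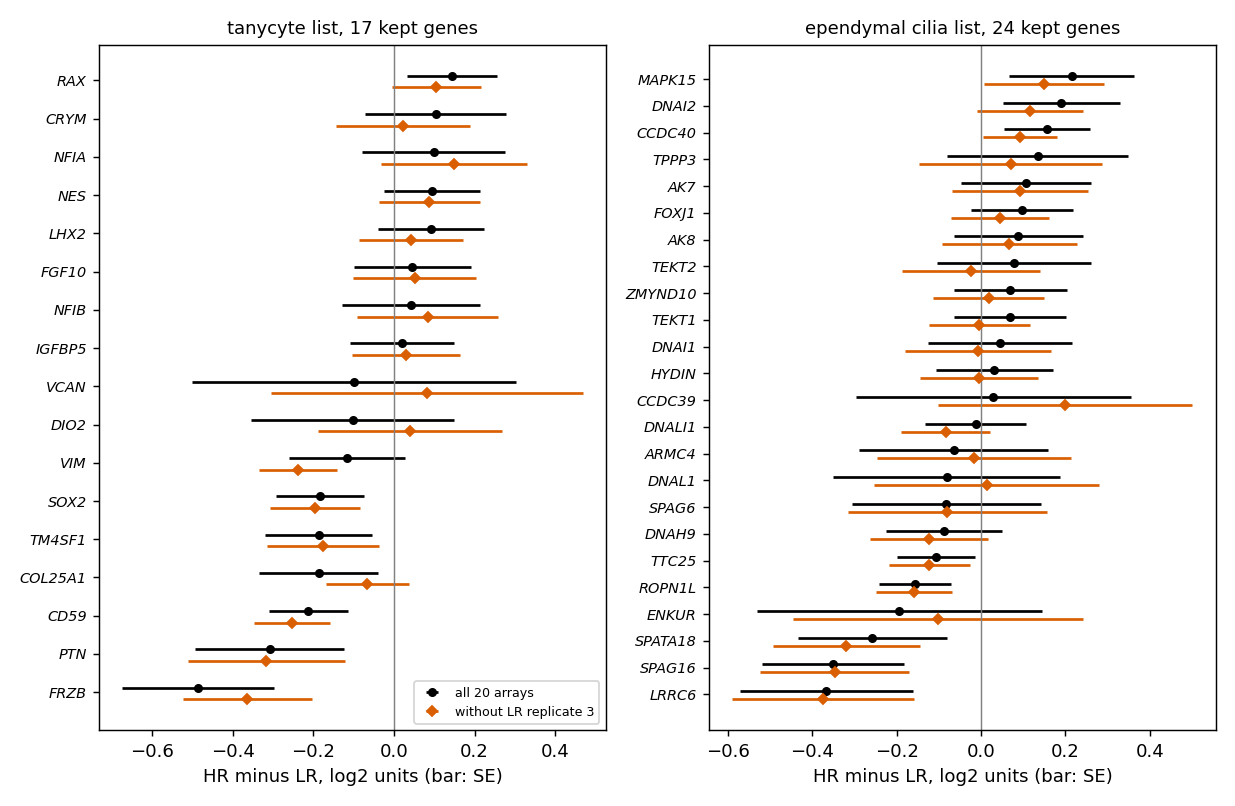
HR minus LR difference in log2 units with its SE for the tested genes of the tanycyte list (left, 17 genes) and of the cilia list (right, 24 genes), with all 20 arrays (black circles) and without LR replicate 3 (orange diamonds). Both lists spread to either side of 0; FRZB (-0.49) lies furthest to the left among the tanycyte genes and MAPK15 (0.21) furthest to the right among the cilia genes.

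Around RARRES2, the receptor CMKLR1 differed by -0.23 ± 0.17 and CCRL2, which binds chemerin without signalling, by 0.08 ± 0.14, and by 0.01 ± 0.13 without LR replicate 3. Of 9 tested genes of chemerin and retinoid signalling 7 were higher and 2 lower in HR, with a median of 0.09, and of 0.01 without LR replicate 3. RARB, a retinoic acid receptor, averaged 7.14 ± 0.47 in HR and 7.49 ± 0.24 in LR, a difference of -0.34 ± 0.16 (unadjusted p = 0.0448 by limma, and 0.0802 without LR replicate 3). STRA6, the cell surface receptor for retinol bound to its carrier, differed by 0.19 ± 0.12. Around VIM and NES, the cytoskeletal linker PLEC differed by 0.19 ± 0.11 and the filament protein SYNM by -0.41 ± 0.32, and none of the 7 filament and lamina genes had an unadjusted p under 0.05 in its brightest probe set with all arrays.

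Markers of other cell types and regions were set beside the members. The mean of 6 choroid plexus markers was 7.45 ± 0.29 in HR and 7.42 ± 0.10 in LR, with up to 7.92 in HR and 7.57 in LR, and TTR, the transthyretin of the choroid plexus, differed by 0.47 ± 0.33 and ENPP2 by -0.44 ± 0.31. The mean of 11 astrocyte markers was 10.32 ± 0.08 in HR and 10.33 ± 0.08 in LR, with SLC1A3 at -0.26 ± 0.21 and GFAP at 0.09 ± 0.10, or 0.04 ± 0.09 without LR replicate 3. The 10 endothelial markers had a mean of 6.95 ± 0.18 in HR and 7.06 ± 0.10 in LR, with 4 higher and 6 lower in HR. Of the 2 with the smallest p, the VEGF receptor FLT1 differed by -0.21 ± 0.09 (unadjusted p = 0.0273 by limma) and PECAM1 by -0.27 ± 0.14. The 10 markers of mural cells and fibroblasts had 7.16 ± 0.09 in HR and 7.20 ± 0.23 in LR, with LUM at -0.30 ± 0.23, or -0.19 ± 0.22 without LR replicate 3, and CSPG4 at 0.13 ± 0.10. The 10 neuron markers had 9.45 ± 0.29 in HR and 9.62 ± 0.26 in LR, where LR replicate 3 was the highest of all arrays at 10.22. Their median difference was -0.27, and -0.16 without that array. The neurofilament NEFH differed by -0.39 ± 0.16 (unadjusted p = 0.0189 by limma), and by -0.30 ± 0.13 without LR replicate 3 (unadjusted p = 0.0375). NEFL differed by -0.27 ± 0.15. The 9 oligodendrocyte markers had 10.33 ± 0.26 in HR and 10.29 ± 0.14 in LR, with MOBP at 0.22 ± 0.18 and MAG at 0.19 ± 0.17. Of the thalamus markers NTNG1 and RGS16 differed by -0.65 ± 0.37 and -0.51 ± 0.31, and by -0.33 ± 0.24 and -0.26 ± 0.22 without LR replicate 3. On that array they stood at 11.68 and 9.998. Of the hypothalamic neurons BSX and HMX2 differed by 0.24 ± 0.14 and 0.18 ± 0.11, and by 0.16 ± 0.12 and 0.13 ± 0.11 without that array. Their part in the values of the members was not tested.

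How the members varied together over the 20 pigs is given as a description, since all arrays share the background signal. RAX, FOXJ1, RARRES2 and NES formed positive pairs, with r of 0.71 for RAX and FOXJ1, 0.73 for RAX and RARRES2, 0.74 for FOXJ1 and RARRES2 and 0.70 for NES and FOXJ1. SPAG6 was opposite to RARRES2 (r = -0.70) and NES (r = -0.67). After a linear fit of each gene on the background control mean, RAX with RARRES2 dropped to 0.24 and FOXJ1 with RARRES2 to 0.09. RAX with FOXJ1 dropped to 0.29 and NES with FOXJ1 to 0.10. SPAG6 then stood at 0.02 with RARRES2 and at -0.03 with NES. The cilia factor FOXJ1 and the cilia protein SPAG6, at r = -0.46 as deposited, reached 0.51. VIM then had 0.48 with SPAG6, 0.43 with RARRES2, 0.39 with FOXJ1, 0.20 with RAX and -0.37 with NES. All 20 arrays were used in these fits. As deposited, VIM correlated with FOXJ1 and RARRES2 at 0.39 and 0.37, and at 0.07 and -0.02 without LR replicate 3.

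FOXJ1 and SPAG6 were also set beside the whole cilia list. As deposited, FOXJ1 had a median r of -0.28 with the other 23 cilia genes, against 0.41 with all 10289 other genes tested, and SPAG6 a median of 0.51 against -0.35. With the background fitted out, the median for FOXJ1 was 0.33 with 18 of 23 positive, against 0.01 with all other genes, and 0.27 without LR replicate 3. For SPAG6 it was 0.44 with 20 of 23 positive, against 0.05, and 0.31 without LR replicate 3. The value for FOXJ1 thus changed sign and that for SPAG6 did not. The single genes ranged widely, with DNAI1, an intermediate chain of the outer dynein arm, at 0.64 with FOXJ1 and 0.65 with SPAG6, DNAL1, a light chain of the same arm, at -0.02 and 0.10, and SPAG16 at -0.24 and 0.11. With 17 markers of hypothalamic neurons FOXJ1 had a median of 0.25, 15 of 17 positive, and of 0.04 without LR replicate 3. SPAG6 had 0.17 with these markers, 14 of 17 positive, and 0.05 without that array. VIM had a median of 0.47 with 24 cilia genes, against 0.06 with all other genes, and of 0.29 without LR replicate 3. It had about the same with 17 markers of hypothalamic neurons, a median of 0.46 with 15 of 17 positive, and of 0.28 without LR replicate 3. With the cilia genes NES had a median of -0.14, and RAX and RARRES2 had 0.15 and 0.20, which were 0.06 and 0.09 without LR replicate 3. RARRES2 had higher medians with markers of hypothalamic neurons (0.32) and astrocytes (0.26), which were 0.13 and 0.28 without LR replicate 3. With the other tanycyte genes, RAX, VIM and NES had medians of 0.12, 0.14 and -0.12, against 0.002, 0.06 and -0.02 with all other genes. Without LR replicate 3 the tanycyte medians were 0.08, -0.01 and -0.04. As deposited they were -0.36, 0.01 and -0.38, against 0.33, 0.09 and 0.40 with all other genes.

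The search for the genes most like each member over the 20 arrays covered 16415 tested probe sets of named genes. How high the top values of such a search reach by chance was not tested. The 3 genes most like VIM were IRS4, an insulin receptor substrate, at r = 0.88, the GABA receptor subunit GABRE at 0.85 and ARHGAP36 at 0.82. All 3 were lowest on LR replicate 3, IRS4 at 6.79 against 7.99 or more on the other 19 arrays, GABRE at 8.64 against at least 9.95, and ARHGAP36 at 6.76 against at least 7.69. Without that array r was 0.71, 0.63 and 0.56. For SPAG6 they were PTP4A2, BAZ1B and PRKD1 (0.90, 0.88 and 0.88), for RARRES2 CYTH4, APOE and EEF1D (0.96 each), for FOXJ1 BCL9L, TMEM219 and PLIN3 (0.92, 0.92 and 0.91), for NES SYNPO, FAM83G and NACAD (0.91, 0.90 and 0.89) and for RAX PCGF3, ASB6 and INO80E (0.90, 0.88 and 0.88). In these 5 genes r stayed between 0.86 and 0.95 without LR replicate 3. With the background fitted out, the gene most like SPAG6 was SPATA18, itself on the cilia list (r = 0.82, with a probe set that is not its brightest), followed by GBGT1 and MEGF6 (0.76 each), and those most like VIM were IRS4, GABRE and NEK11 (0.91, 0.88 and 0.86). For RARRES2 they were FMOD, CASC3 and PTTG1IP (0.86, 0.84 and 0.83), for NES ACR, SERPINE2 and KCNMB2 (0.72, 0.72 and 0.71), for FOXJ1 BCL9L, TMEM219 and SMTN (0.76, 0.75 and 0.75), and for RAX PCGF3, ENO4 and ASB6 (0.76, 0.74 and 0.72).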

How the data were processed

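RNA of hypothalamus from 20 pigs (10 HR, 10 LR) was hybridised individually to Affymetrix Porcine Snowball arrays. The authors processed the scans with GCOS 1.1.1 and normalised them by RMA, and the deposited values are log2 signals of 47845 probe sets. The detection filter described in the study was not used here. RMA gives all arrays a similar distribution, so that a change of most transcripts in 1 direction cannot be seen, and unspecific binding compresses differences of dim probe sets. Control probe sets (123) were set aside, and the 50% of the others with the higher mean were tested (23861, mean of at least 5.21). Gene symbols are those of the platform annotation, updated through RefSeq Sscrofa11.1 (of 13755 symbols 13394 were found and 264 updated), which also gave the positions. A gene with several probe sets was represented in lists by its brightest.

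HR and LR were compared with limma 3.58.1 in R 4.3.3 (lmFit, eBayes), the coefficient being HR minus LR, and p-values were adjusted by Benjamini-Hochberg over the tested probe sets, with a threshold of 0.05. The script was tested on simulated data. Correlations were tested by 100000 permutations, two-sided. Each array was taken as 1 animal. The members and gene lists were chosen with earlier results of these data known. Genes were named by rule: all member probe sets, the 2 genes of smallest p in each list, the 3 genes most like each member, and TCF7L2; genes named beyond it (DIO2, LHX2, CRYM, COL25A1, CCDC39, MAPK15, CMKLR1, CCRL2, RXRG, RARA, RXRA, DNAI1, DNAL1) were chosen after their values were seen. Alternatives covered the filter, scaling, array weights, a rank-sum test, the background as a covariate and leaving out each array; the covariate together with leaving out LR replicate 3 was added after seeing the data. The number of arrays limits the precision.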

Additional observations from a re-analysis of the deposited data

Results flagged for a closer look

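In 10 of 52 groups of 10 values examined, the highest or lowest pig lay far from the nearest other one of its group, where chance gives about 1 in 20. That rate is no measure for LR replicate 3, which was singled out by its thalamus and hypothalamus markers. The pig was LR replicate 3 in 8 of these. Among the members, VIM was lowest on LR replicate 3 in both probe sets, at 9.93 (next LR pig 10.85) and 9.18 (next 10.42), and the dimmer FOXJ1 probe set at 5.43 (next 5.85). Among the list means, this array was lowest for the regulators of multiciliation at 6.84 (next 7.04), for the intermediate filament genes at 7.70 (next 7.91) and for hypothalamic neurons at 7.11 (next 7.90), and highest for neurons at 10.22 (next 9.76) and thalamus at 9.37 (next 8.43). The multiciliation list holds FOXJ1 and the filament list VIM and NES, so these 2 are not separate from the members. The thalamus and hypothalamic neuron means are those by which the array was picked out. The other 2 values were RAX on HR replicate 8, lowest at 4.81 (next HR pig 5.21), and the NES probe set SNOWBALL_042471_st on LR replicate 2, highest at 5.81 (next LR pig 5.54).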

How the results depend on the processing

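No alternative gave a member an adjusted p under 0.05. With all arrays, 1 member probe set had an unadjusted p under 0.05. That count was 0 where only the brighter part of the tested probe sets was kept, a filter that leaves out this NES probe set and so does not test it. Under array weights it was 0. Over the fits that left out a single array it was 1 to 3, the 3 belonging to LR replicate 3, against 3.50% of all tested probe sets. By the rank-sum test it was 2, where 875 of all tested probe sets had an unadjusted p under 0.05. These 2 were the same NES probe set (rank-sum p = 0.0232) and the dimmer VIM probe set (rank-sum p = 0.0355), with all 20 arrays. With the background covariate the count was 1, against 7.89% of all. The count was 3 with both changes, the background covariate and LR replicate 3 left out. For this setting and for array weights the share of all tested probe sets is not given. These counts therefore have no measure beside them. Of 302 alternative values of single member probe sets 285 kept direction and side of the threshold and 17 turned direction, all in probe sets whose difference with all arrays was smaller than its SE. For the NES probe set SNOWBALL_038445_st the difference was -0.0020 with the background covariate, -0.0068 between medians and -0.0087 to 0.066 when 1 array was left out. For the brighter FOXJ1 probe set it was -0.036 between medians, and -0.0059 with the covariate and without LR replicate 3. For the dimmer it was -0.040 with array weights, -0.043 with the covariate, -0.062 between medians, -0.074 with the covariate and without LR replicate 3, and -0.019 to 0.11 when 1 array was left out. The brighter RARRES2 probe set had -0.014 with the covariate and without LR replicate 3. SPAG6 had 0.028 with array weights, 0.081 with the covariate, 0.071 between medians, 0.039 with the covariate and without LR replicate 3, and -0.17 to 0.052 when 1 array was left out. Both of VIM, RAX, the dimmer of RARRES2 and the other NES probe sets tested kept their direction. The cause was not tested. The median over the 6 genes lay between 0.01 and 0.15, over the tanycyte list between -0.14 and 0.05 and over the cilia list between -0.02 and 0.07. The rank-sum test used a normal approximation for 202 probe sets with ties. No paired analysis was possible because the groups hold different animals and the labels do not link them. Of the tested member probe sets, RAX and NES SNOWBALL_042471_st were the dimmest, at means of 5.25 and 5.31; the 2 untested NES probe sets lay below the background control means of both groups.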
